A study of Mus musculus with 5 samples.

Results

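The nuclear-encoded genes of the respiratory chain were followed in mouse mature CD8 single-positive thymocytes. Members were all genes whose symbol begins with Nduf, Uqcr, Atp5, or Cox followed by a digit from 4 to 8, together with Sdha, Sdhb, Sdhc and Sdhd, and pseudogene symbols ending in -ps were left out. This gave 92 of the 35976 genes counted: 38 named for complex I, 7 complex I assembly factors (Ndufaf genes), 4 of complex II, 8 of complex III, 18 of complex IV and 17 named for complex V. The cells came from the thymus and were purified by flow cytometry, and their total RNA was sequenced in bulk. There were 2 libraries of genotype Runx3 +/+ and 3 of genotype Runx3 +/WRPW, heterozygous for an allele that the labels give by name only. The labels give no age, strain or treatment, and nothing in them ties each library to a mouse of its own. The spread behind every p-value is therefore that of the libraries alone and could be technical.

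The respiratory chain lies in the inner mitochondrial membrane. Complex I takes electrons from NADH and complex II takes them from succinate, complex III passes them to cytochrome c, and complex IV gives them to oxygen. Complexes I, III and IV pump protons, and complex V, the ATP synthase, uses the returning protons to make ATP. Most subunits are encoded in the nucleus and imported, while a small core is encoded in mitochondrial DNA. Resting T cells draw on this pathway for most of their ATP, and dividing thymocytes combine it with glycolysis. Runx3 is a transcription factor needed for the CD8 lineage.

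Total counts ran from 15715242 to 43758550 per library, and the members took 0.574% to 0.613% of them. Runx3 +/WRPW library 2, the shallowest, had a count at 27414 genes, against 17237 to 18967 in the other 4. Of 10 T cell and CD8 genes, all were present at 209.6 CPM (counts-per-million, each library scaled by its TMM factor) or more in every library. Cd3d and Cd247 were called lower in Runx3 +/WRPW. The fitted log2 fold change, Runx3 +/WRPW over Runx3 +/+, was below 0 for 9 of the 10, with a median of -0.31. Over all genes tested, 46.8% were below 0. The 10 genes of dividing cells were all called lower, with a summed level, here and for the lists that follow in CPM of the unscaled library total, of 613 and 660 in the Runx3 +/+ libraries and 88.9 to 104 in the Runx3 +/WRPW libraries. Summed levels of 7 myeloid genes were 5.64 to 11.8 CPM, of 6 B cell genes 3.16 to 12.9 CPM, of 6 thymic epithelial genes 3.00 to 14.4 CPM and of 7 erythroid genes 1.53 to 2.90 CPM, and the highest myeloid, B cell and epithelial sums were all in Runx3 +/WRPW library 2. Hba-a1 and Hba-a2 were at 0 in all 5 libraries. Summed CD4 lineage genes, 4 in number, were at 6.19 and 15.7 CPM in Runx3 +/+ and 1.10 to 2.08 CPM in Runx3 +/WRPW. Cd79b of the B cell list and Foxp3 of the CD4 list were called lower in Runx3 +/WRPW: TMM-scaled levels were 7.57 and 7.55 CPM against 2.19, 1.81 and 1.79 for Cd79b, and 5.09 and 9.63 against 1.19, 0.685 and 0.414 for Foxp3. The part of these differences in the members' values was not tested. In bulk RNA, fewer cells of a type and less RNA per cell cannot be told apart.

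Between the genotypes the respiratory chain genes differed little. Of the 86 members with enough counts to be tested, 5 were called lower in Runx3 +/WRPW and 1 was called higher, at an adjusted p under 0.05 in edgeR's quasi-likelihood test across 13666 genes. That is 6.98% of the members, against 13.6% of all genes tested (7.33% lower and 6.24% higher). The difference between these shares was not tested. The 5 lower members were Cox5a of complex IV, Ndufa10 and Ndufs4 of complex I, Sdhb of complex II and Atp5g3 of complex V, and they fell by 17.3% to 26.9%. The higher member was Atp5s, an Atp5-named factor that is not a subunit of the enzyme, at 1.81-fold. The other 80 did not pass.

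Differences among the tested members, called or not, were mostly small and mostly below 0. The median log2 fold change, Runx3 +/WRPW over Runx3 +/+, was -0.09 over the 86 members and 0.02 over all genes tested. Fitted values lay below 0 for 63 members (73.3%), against 46.8% of all genes, and for 56 members when upper-quartile factors replaced the TMM factors. Those factors moved both medians up, to -0.06 over the members and 0.05 over all genes tested. For 76 of the 86, the 95% interval of the fitted difference lay within 1.5-fold in either direction. Over all genes tested, 6944 of 13666 were bounded within 1.5-fold. The width of an interval follows its standard error, whose median was 0.077 over the members and 0.12 over all genes tested. The members were thus measured more precisely than most genes.

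Every Runx3 +/WRPW library lay below both Runx3 +/+ libraries for 40 of the 86 members (46.5%, against 23.8% of all genes tested), and above both for 7 (8.14%, against 24.7%). The genotypes overlapped at the other 39. These counts depend on the scaling: with library totals alone, 27 members lay below and 9 above, against 20.7% and 28.2% of all genes, and with upper-quartile factors 28 and 9, against 21.0% and 27.7%. The 7 members above were Ndufb2, Ndufb9, Cox6b1, Cox7c, Atp5e, Atp5g2 and Atp5s, of which Atp5s alone passed the test. Members share libraries and scaling, so they are not replicates of each other.

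**Figure D1:**
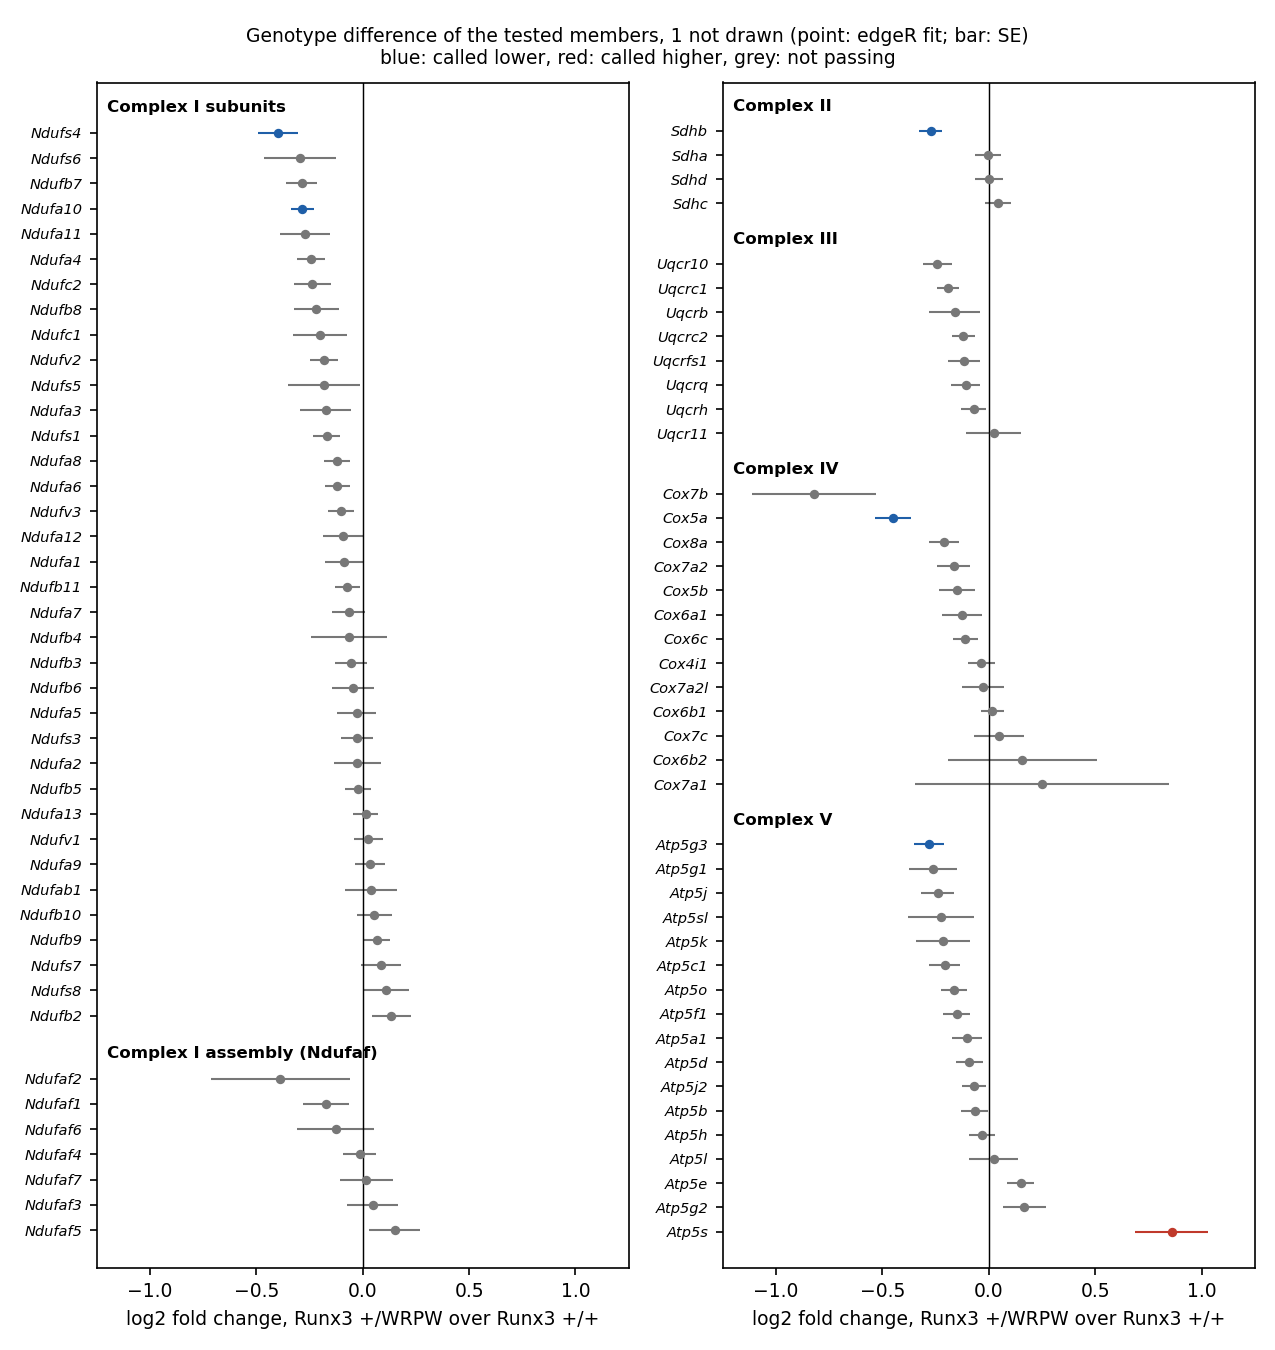
Log2 fold change, Runx3 +/WRPW over Runx3 +/+, of the tested members (x axis; 1 of the 86 is not drawn), by complex, with points from the edgeR fit and bars of 1 standard error. The 5 blue points passed the test as lower and the red point, Atp5s at 0.86, as higher, while Cox7b at -0.82 has a wide bar and did not pass.

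Complex I is built from a conserved core that carries the flavin, the iron-sulfur clusters and the proton pumps, with accessory subunits around it. Among its 37 tested subunit genes, 2 fell, 0 rose and the median log2 fold change was -0.09. The 2 were both accessory subunits: Ndufa10, and Ndufs4, which is needed for a late step of assembly and whose loss in mice and people causes Leigh-like disease. Of 29 accessory subunits these were the only ones called. Of the 7 nuclear core subunits, 0 passed in edgeR, DESeq2 or limma-voom and 2, both lower, had an unadjusted p under 0.05 in edgeR (median -0.03). Every Runx3 +/WRPW library was lower for 16 of the 37 (43.2%, against 23.8% of all genes tested) and higher for 2 (5.41%, against 24.7%).

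Ndufa10 (chromosome 1, 92439010 to 92473860, minus strand, in mm10) stood at 89.4 and 92.9 CPM in Runx3 +/+ libraries 1 and 2, and at 75.4, 74.3 and 75.1 CPM in Runx3 +/WRPW libraries 1, 2 and 3. The genotypes did not overlap, and the 3 heterozygous libraries lay close together. The fitted log2 fold change was -0.28 ± 0.05 (SE, adjusted p = 0.0247 in edgeR), a fall of 17.8%. Ndufs4 (chromosome 13, 114287795 to 114388258, minus strand) was at 32.5 and 31.6 CPM in Runx3 +/+ and at 24.8, 22.2 and 25.8 CPM in Runx3 +/WRPW. Again no heterozygous library reached a Runx3 +/+ library. The log2 fold change was -0.40 ± 0.09 (adjusted p = 0.0424 in edgeR), a fall of 24.2%.

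Next to the threshold were Ndufb7, an accessory subunit, and Ndufa4. Ndufb7 was at 51.9 and 51.8 CPM in Runx3 +/+ and 45.4, 40.9 and 41.0 CPM in Runx3 +/WRPW, which do not overlap (log2 fold change -0.29 ± 0.07, adjusted p = 0.0540 in edgeR). Ndufa4 keeps a complex I name, although its protein is now assigned to complex IV, and it was at 84.5 and 89.5 CPM against 70.3, 75.9 and 74.7 CPM. It too was without overlap and did not pass (-0.24 ± 0.06, adjusted p = 0.0603 in edgeR). Counting it with complex IV changed no count of calls. Its relative Ndufa4l2, known as a gene switched on in hypoxia, had 0 counts in all 5 libraries, where 3 counts correspond to 0.0686 to 0.191 CPM.

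The 7 core subunits went both ways, with fitted values from -0.18 to 0.11. Ndufs1, which holds several of the iron-sulfur clusters, was at 97.7 and 89.2 CPM in Runx3 +/+ and 84.9, 80.8 and 83.4 CPM in Runx3 +/WRPW (-0.17 ± 0.07, adjusted p = 0.145 in edgeR). For Ndufv1, which binds NADH and the flavin, the levels were 84.5 and 91.0 CPM against 93.9, 87.4 and 86.8 CPM. Those of Ndufv1 overlapped, and its difference was 0.03, with a 95% interval from -0.14 to 0.19 on the log2 scale.

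The 7 Ndufaf genes code for factors that put complex I together and are not found in the finished enzyme. Of the 7, 0 were called by edgeR, DESeq2 or limma-voom, and 0 had an unadjusted p under 0.05 in edgeR. Their median log2 fold change was -0.01, against 0.02 over all genes tested. With upper-quartile factors it was 0.02, against 0.05. Ndufaf1, an early assembly factor of the membrane arm, was at 15.6 and 18.0 CPM in Runx3 +/+ and 15.04, 15.1 and 14.6 CPM in Runx3 +/WRPW. It was the 1 Ndufaf gene whose genotypes did not overlap (-0.17 ± 0.11, adjusted p = 0.352 in edgeR). Ndufaf5, a methyltransferase-like assembly factor, was at 13.5 and 11.5 CPM against 13.3, 14.1 and 14.3 CPM (0.15 ± 0.12, adjusted p = 0.463). The Runx3 +/+ libraries stood apart for Ndufaf2, with 4.30 and 8.67 CPM, and overlapped Runx3 +/WRPW, with 5.71, 5.11 and 4.05 CPM.

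Complex II has 4 subunits, all of them nuclear-encoded, and also works in the tricarboxylic acid cycle as succinate dehydrogenase. Sdhb, the iron-sulfur subunit, fell and the other 3 did not pass. Sdhb (chromosome 4, 140961203 to 140979193, plus strand) was at 93.6 and 98 CPM in Runx3 +/+ and 79.1, 79.95 and 78.7 CPM in Runx3 +/WRPW. The heterozygous libraries lay close together and below both Runx3 +/+ libraries, with a log2 fold change of -0.27 ± 0.06 (adjusted p = 0.0280 in edgeR), a fall of 17.3%.

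Sdha, the flavin-bearing partner of Sdhb, was at 248 and 254 CPM in Runx3 +/+ and 259, 245 and 247 CPM in Runx3 +/WRPW. The genotypes overlapped, and the 95% interval of its log2 fold change ran from -0.15 to 0.15. The membrane anchors overlapped too. Sdhc was at 43.2 and 43.4 CPM against 43.4, 44.8 and 45.7 CPM (interval -0.11 to 0.20), and Sdhd at 60.0 and 58.8 CPM against 58.4, 57.5 and 62.2 CPM (interval -0.16 to 0.16). The interval of Sdhb, -0.41 to -0.14, overlapped that of Sdha, and the difference between the subunits was not tested.

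Complex III had no called member in edgeR or limma-voom and 1, Uqcrc1, in DESeq2, and 2 of its genes, both lower, had an unadjusted p under 0.05 in edgeR. Of 8 genes, 7 (87.5%, against 23.8% of all genes tested) had every Runx3 +/WRPW library below both Runx3 +/+ libraries on the TMM scale. The median log2 fold change was -0.12. The core protein Uqcrc1 was at 133 and 131 CPM in Runx3 +/+ and 116, 116 and 114 CPM in Runx3 +/WRPW (-0.19 ± 0.05, adjusted p = 0.0622 in edgeR). Uqcr10, a small subunit, was at 40.4 and 43.2 CPM against 35.4, 34.9 and 35.8 CPM (-0.24 ± 0.07, adjusted p = 0.0704 in edgeR). Uqcrh, the hinge protein that sits beside cytochrome c1, was at 75 and 74.7 CPM against 74.1, 70.4 and 69.2 CPM, a difference of -0.07 with an interval from -0.22 to 0.07. Uqcr11 was the 1 member whose genotypes overlapped, at 14.7 and 14.7 CPM against 13.6, 16.9 and 14.4 CPM.

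Complex IV, cytochrome c oxidase, is the complex with the most tissue-restricted isoforms. Of its 18 genes 13 were tested, 1 fell, 0 rose and the median log2 fold change was -0.11. Cox5a, a subunit present in all tissues (chromosome 9, 57521274 to 57532426, plus strand), had the smallest p-value of all the members. It was at 60.4 and 69.9 CPM in Runx3 +/+ and 45.5, 47.9 and 49.7 CPM in Runx3 +/WRPW. The genotypes did not overlap, with both Runx3 +/+ libraries well above all 3 heterozygous libraries. The log2 fold change was -0.45 ± 0.08 (adjusted p = 0.0228 in edgeR), a fall of 26.9%. The annotation has an exon of Gm26631 on the other strand over 269 bases of Cox5a, and without strand the 2 cannot be told apart.

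Cox7b, another common subunit, had the lowest fitted value of all the members but did not pass, and its Runx3 +/+ libraries stood far apart. Library 1 had 126 CPM and library 2 had 58.0 CPM, against 51.7, 52.4 and 52.2 CPM in Runx3 +/WRPW. Its log2 fold change was -0.82 ± 0.29 (adjusted p = 0.123 in edgeR). Without Runx3 +/+ library 1 the value was -0.19, and without Runx3 +/+ library 2 it was -1.28 and passed (adjusted p = 0.0146 in edgeR, with the lone library assumed to vary like the others). Atp5sl, a gene on another chromosome, was likewise high in Runx3 +/+ library 1 alone, at 60.3 CPM against 41.0 to 43.7 CPM in the other 4 libraries.

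Where complex IV has a common and a tissue-restricted isoform, the common one was the higher per length. Cox4i1 was at 203 and 212 CPM in Runx3 +/+ and 210, 204 and 195 CPM in Runx3 +/WRPW, with overlap (-0.03 ± 0.06, interval -0.19 to 0.12). Cox4i2, its lung-type partner, had 1 and 3 counts in the Runx3 +/+ libraries and 4, 11 and 3 in the Runx3 +/WRPW libraries. The highest of these was 0.685 CPM, in Runx3 +/WRPW library 2, the library with the most genes detected. As a level per length of exon (TPM, transcripts-per-million), the mean over the 5 libraries was 825 for Cox4i1 and 0.851 for Cox4i2.

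The same held for the other isoform pairs. Cox6a1, the common form, was at 131 and 155 CPM against 136, 134 and 123 CPM, while Cox6a2, the heart and muscle form, had 0 or 1 count per library. Cox8a was at 84.7 and 94.6 CPM against 77.0, 79.5 and 76.0 CPM, without overlap but without passing (-0.21 ± 0.07, adjusted p = 0.102 in edgeR), and Cox8b and Cox8c had at most 2 counts in any library. Cox7b2, a testis form, had 5 counts in Runx3 +/WRPW library 2 and 0 in the other 4. Ndufa4l2 and these 5 genes, Cox4i2, Cox6a2, Cox7b2, Cox8b and Cox8c, are the 6 members left out of the test for low counts.

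Among the remaining pairs, Cox6b1 hardly varied, at 65.7 and 66.1 CPM in Runx3 +/+ and 66.9, 66.8 and 66.3 CPM in Runx3 +/WRPW (0.02 ± 0.05). Cox6b2, known from testis, was at 1.77 and 1.80 CPM against 1.78, 2.43 and 1.79 CPM, so Runx3 +/WRPW library 2 alone stood apart. Cox7a2 was at 43.0 and 45.0 CPM against 36.7, 40.1 and 41.0 CPM (-0.17 ± 0.08, adjusted p = 0.218 in edgeR), with no overlap. The muscle form Cox7a1 ran from 0.400 to 1.12 CPM, with both extremes in Runx3 +/+. Cox7a2l, which helps to join complexes III and IV into supercomplexes, ran from 64.8 to 80.1 CPM, with both extremes in Runx3 +/WRPW.

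Complex V has a soluble F1 head that makes ATP, a ring of c subunits in the membrane, a peripheral stalk and small membrane subunits. Of its 17 genes, all tested, 1 fell, 1 rose and 15 did not pass, and the median log2 fold change was -0.10. Every Runx3 +/WRPW library was lower for 9 (52.9%, against 23.8% of all genes tested) and higher for 3 (17.6%, against 24.7%).

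In the F1 head, Atp5b, the catalytic beta subunit, was at 773 and 812 CPM in Runx3 +/+ and 758, 733 and 780 CPM in Runx3 +/WRPW, with overlap (-0.07 ± 0.06, interval -0.22 to 0.09). Atp5a1, the alpha subunit, was at 630 and 651 CPM against 618, 564 and 609 CPM, without overlap and without passing (-0.10 ± 0.07, adjusted p = 0.380 in edgeR). Atp5e, the epsilon subunit, went the other way, at 83.4 and 80.6 CPM against 92.2, 94.0 and 86.7 CPM (0.15 ± 0.06, adjusted p = 0.172). The 4 peripheral stalk genes, Atp5f1, Atp5h, Atp5j and Atp5o, had fitted values of -0.24 to -0.03, and none was called.

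The c ring is made from a single mature protein encoded by 3 genes, and these differed from one another. Atp5g3 (chromosome 2, 73908447 to 73911326, minus strand) was at 163 and 174 CPM in Runx3 +/+ and 143, 130 and 142 CPM in Runx3 +/WRPW, with no overlap. It fell by 17.7% (-0.28 ± 0.07 on the log2 scale, adjusted p = 0.0495 in edgeR), just past the threshold. Atp5g1 was at 12.1 and 11.3 CPM against 9.39, 10.3 and 9.66 CPM, lower in every heterozygous library without passing (-0.26 ± 0.11, adjusted p = 0.189). Atp5g2 was at 18.8 and 17.4 CPM against 19.95, 21.7 and 19.4 CPM, higher in every heterozygous library without passing (0.17 ± 0.10, adjusted p = 0.336). Per length of exon, Atp5g3 was the highest at 639 TPM, with 82.1 TPM for Atp5g2 and 6.61 TPM for Atp5g1. The annotated exons of Atp5g1 add up to 4912 bases, the longest of all members, against 731 for Atp5g2 and 724 for Atp5g3. A longer annotated length gives a lower TPM at the same count, so the TPM of Atp5g1 depends on the annotation. The difference between the 3 genes in their response to genotype was not tested.

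Atp5s, also called coupling factor B (chromosome 12, 69724950 to 69744660, plus strand), was the 1 member called higher. It was at 3.78 and 4.44 CPM in Runx3 +/+ and 6.88, 7.78 and 7.77 CPM in Runx3 +/WRPW, so that the genotypes were far apart at a low level. The log2 fold change was 0.86 ± 0.17 (adjusted p = 0.0272 in edgeR), and its interval, 0.44 to 1.28, lies above 0. Atp5sl, its paralogue by name and an assembly factor of complex I, was at 60.3 and 41.0 CPM against 43.4, 43.7 and 43.0 CPM (-0.22 ± 0.16, adjusted p = 0.397).

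**Figure D2:**
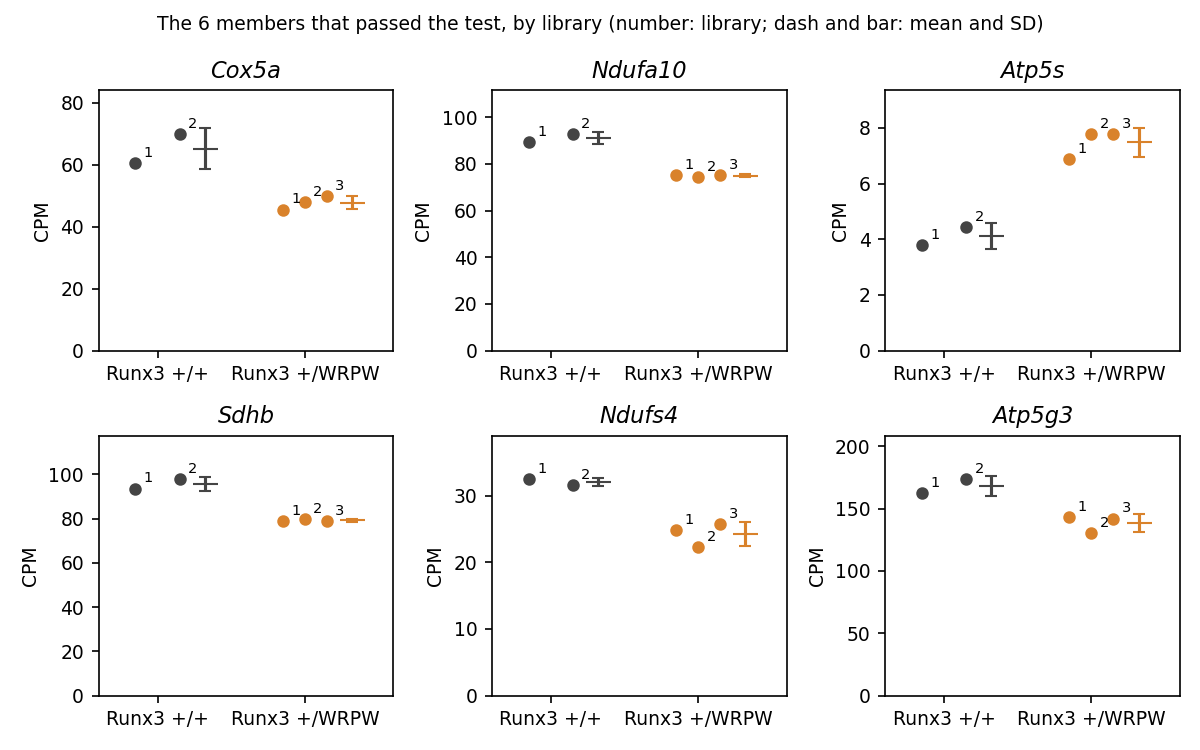
TMM-scaled CPM (y axis, from 0) of the 6 called members in each library, numbered 1 and 2 for Runx3 +/+ and 1 to 3 for Runx3 +/WRPW, with the mean and SD as a dash and bar. The genotypes do not overlap in any panel, and Atp5s, at 3.78 to 7.78 CPM, is the 1 member that is higher in Runx3 +/WRPW.

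All 6 calls rested on the full set of 5 libraries. Leaving out any 1 library ended each of them, except that Cox5a still passed without Runx3 +/WRPW library 2 (adjusted p = 0.0493 in edgeR). Over the 5 omissions the adjusted p ran from 0.0493 to 0.184 for Cox5a, from 0.0552 to 0.217 for Ndufa10, from 0.0553 to 0.218 for Sdhb and from 0.0573 to 0.191 for Atp5s. For Ndufs4 it ran from 0.0740 to 0.243, and for Atp5g3 from 0.0804 to 0.422. None of the 6 changed sign. Calls fell over all genes too, from 13.6% to 5.71%, 10.8% and 6.97% without Runx3 +/WRPW library 1, 2 and 3.

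Summing the counts of each complex gives its share of the library. All 92 members together had 6118 and 6131 CPM, here of the unscaled library total, in Runx3 +/+ libraries 1 and 2, and 5848, 5824 and 5735 in Runx3 +/WRPW libraries 1, 2 and 3, a mean 5.26% lower. The genotypes do not overlap in this sum, which the most abundant members dominate and for which no test was made. For complex I the sums were 1717 and 1727 against 1660, 1681 and 1595 (4.45% lower), and for complex V 2445 and 2477 against 2359, 2306 and 2354 (4.93% lower).

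Complex III summed to 523 and 516 CPM in Runx3 +/+ and to 490, 485 and 473 in Runx3 +/WRPW, 7.03% lower. Complex IV had the widest gap, at 885 and 860 against 792, 809 and 775, 9.25% lower, of which Cox7b was a large piece. Without Cox7b, which was left out after its values were seen, the sums were 760 and 803 against 740, 755 and 723, or 5.41% lower. Complex II (440 and 446 against 440, 437 and 431) and the Ndufaf genes (108 and 106 against 107, 107 and 107) overlapped between genotypes. On the TMM scale used for single genes neither overlapped: complex II was at 444 and 455 CPM against 440, 428 and 433, and the Ndufaf genes at 109.6 and 108.3 against 106.9, 104.4 and 107.8.

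**Figure D3:**
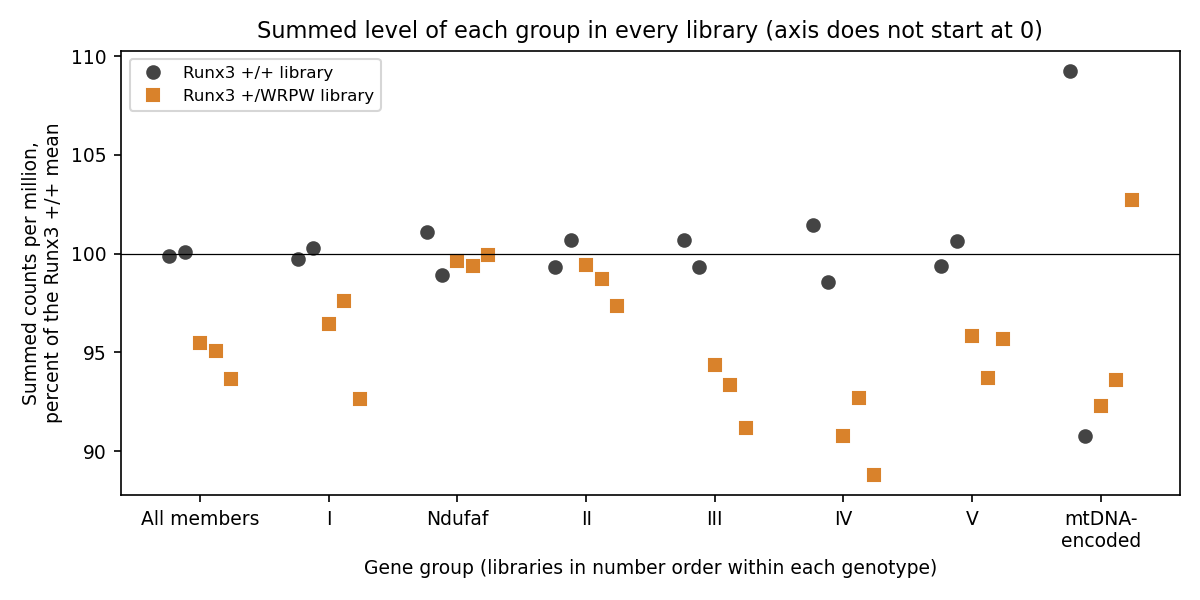
Summed counts of each gene group in each library, as a percentage of the Runx3 +/+ mean (y axis), for all members, each complex and the mtDNA-encoded genes. The Runx3 +/WRPW libraries lie below both Runx3 +/+ libraries for all members and for complexes I, III, IV and V, and, on these unscaled totals, overlap them for complex II, the Ndufaf genes and the mtDNA-encoded genes; on the TMM scale complex II and the Ndufaf genes do not overlap.

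The 13 genes encoded in mitochondrial DNA supply core subunits of complexes I, III, IV and V. Of the 12 tested, 0 were called by edgeR, DESeq2 or limma-voom, and 2, mt-Co2 and mt-Co3, had an unadjusted p under 0.05 in edgeR, both higher. Summed counts of the 13 were 15960 and 13258 CPM of the library total in Runx3 +/+ and 13478, 13675 and 15002 in Runx3 +/WRPW, so the 2 genotypes overlapped. That sum came almost wholly from mt-Nd1, mt-Nd2, mt-Nd4, mt-Nd5, mt-Nd6, mt-Cytb and mt-Co1. The others, among them both complex V genes, were at 10.5 CPM (TMM-scaled) or less in every library. The genes fell into separate ranges of level: mt-Co1 was at 4886 and 4342 CPM in Runx3 +/+, while mt-Co2, a subunit of the same enzyme, was at 6.07 and 6.83 CPM. In Runx3 +/WRPW they were at 4202, 4161 and 4584 CPM and at 7.75, 9.59 and 9.02 CPM. How the counting treated reads that match more than 1 place is not given in the sources used here, and its part in these low levels was not tested.

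Per length, the members spanned a wide range within each complex. The 86 members above 1 TPM, averaged over the 5 libraries, ran from 4.89 to 1240 TPM with a median of 140 TPM. Atp5b was the highest at 1240 TPM, followed by Cox4i1 at 825, Cox6a1 at 733, Atp5a1 at 652, Atp5e at 640 and Atp5g3 at 639 TPM. The highest of the other groups were Uqcrh at 409, Ndufa4 at 390, Sdha at 266 and Ndufaf5 at 35.3 TPM, so every Ndufaf gene lay below the median of the members. At the low end, Ndufab1, the mitochondrial acyl carrier protein, was at 7.98 TPM and Sdhc, at 42.8 TPM, was the lowest of complex II. Their annotated exons are long, at 4387 and 3171 bases, which lowers the TPM at a given count.

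Many of these genes have processed pseudogenes, whose near-identical sequence can take or share reads. Of the 86 members, 15 had a stretch of at least 75 bases at 98% identity or more to an annotated pseudogene transcript. In 4 of them, Ndufs3, Uqcrb, Atp5h and Atp5l, such stretches covered 50% or more of the transcript. The median level was 173 TPM for the 71 members with no such stretch, 49.4 TPM for the 11 with less than 50%, and 82.9 TPM for those 4, whose levels are uncertain. Cox5a, Ndufa10, Ndufs4, Sdhb, Atp5g3 and Atp5s had none. Exons of 23 members overlap a gene on the opposite strand.

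**Figure D4:**
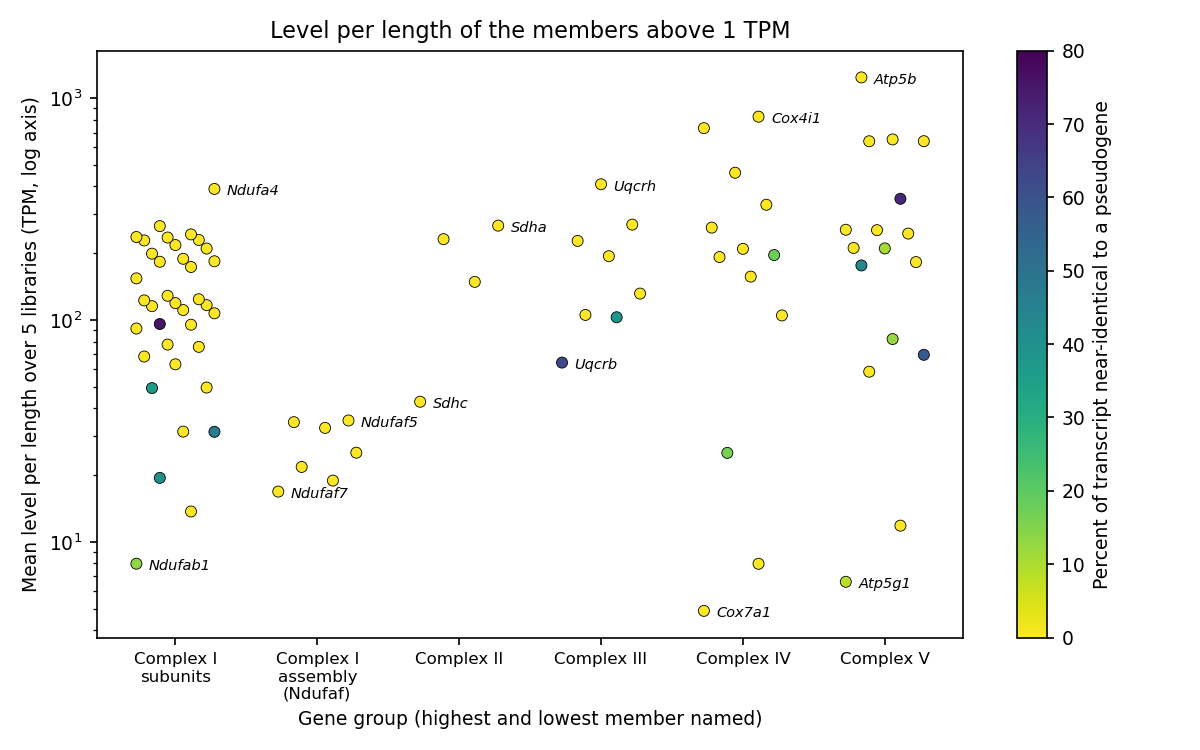
Mean TPM over the 5 libraries (y axis, log scale) of each member above 1 TPM, by gene group, coloured by the percentage of its transcript that is near-identical to a pseudogene. Levels run from 4.89 TPM for Cox7a1 to 1240 TPM for Atp5b, and the 7 Ndufaf genes lie between 16.9 and 35.3 TPM.

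The promoters hold features that the choice by symbol did not use. RefSeq promoter windows on GRCm38.p6, from 250 bases before the transcript start to 50 after, were matched for 73 of the 92 members and searched on both strands for 5 motifs. AAGATGGC, the core of the YY1 site, was in 9 of the 73 (12.3%), against 5.27% of 9999 tested genes with a window. In 8 of the 9 it lay on the coding strand 22 to 38 bases after the RefSeq start of the window, counted from 0 at the first transcribed base. The motif contains ATG, the letters of a start codon. Whether translation starts at these matches was not tested, so their shared place cannot be read as a promoter feature alone. Each match is shown 5′ to 3′ on the coding strand in 30 bases of reference sequence, with the motif in capitals, because the place of the motif is what most of these members share.
Ndufs4: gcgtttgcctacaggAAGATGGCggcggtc
Ndufs6: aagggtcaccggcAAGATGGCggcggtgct
Ndufs7: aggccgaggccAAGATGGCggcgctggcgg
Ndufa3: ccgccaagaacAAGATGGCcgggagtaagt
Ndufa9: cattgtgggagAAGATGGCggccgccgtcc
Ndufb8: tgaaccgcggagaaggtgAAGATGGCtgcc
Ndufc1: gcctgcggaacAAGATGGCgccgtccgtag
Atp5j2: accaggacttcAAGATGGCgtcactcggtg
Atp5j: aaagtgtaggaAAGATGGCggagtcttagc

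In Atp5j the match is 88 bases before the RefSeq start of the window, but inside the gene as GENCODE M21 annotates it (chromosome 16, 84827866 to 84835625). The GENCODE gene of Ndufs4 also begins before the RefSeq start, so these places depend on the annotation. Among tested genes, 239 of 573 matches (41.7%) lay after the start on the coding strand. Of the 9 genes 7 belong to complex I, and Ndufs4, at chr13:114388045-114388074, is the 1 called gene among them. Yy1 itself was at 152 and 153 CPM in Runx3 +/+ and 130, 123 and 136 CPM in Runx3 +/WRPW, without overlap and without passing (-0.23 ± 0.06, adjusted p = 0.0664 in edgeR).

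The site of NRF1, a regulator named for nuclear respiratory genes, was searched as GCGCATGCG. It was in 10 members (13.7%), namely Ndufa8, Ndufa11, Ndufaf4, Ndufaf5, Uqcrc1, Uqcr11, Cox6a1, Atp5g2, Atp5k and Atp5l, against 4.13% of tested genes, and edgeR called none of the 10, while DESeq2 called Uqcrc1. Searched as CCGGAAGT, the ETS site that GABPA binds was in 5 members (6.85%), against 9.08%. TGTGGTT, the RUNX core, was in Ndufab1 and Uqcr11, or 2.74%, against 4.82%. Neither gene was called. TCAAGGTCA, the site of the estrogen-related receptors, was in Sdhd and Atp5g3, again 2.74%, against 0.360%. The match in Atp5g3 lies 52 bases before the start and is shown in capitals, as its reverse complement, in the 100 bases before the start (chr2:73911327-73911426, minus strand), since this is the called member that holds a match.
Atp5g3: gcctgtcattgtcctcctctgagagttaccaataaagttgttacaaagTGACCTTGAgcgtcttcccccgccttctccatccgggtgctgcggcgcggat

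These are matches of letters in a window, and binding was not measured.

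Other genes that serve the chain, among them the 13 mtDNA-encoded genes, were read from 9 further lists of 106 genes. Of 101 tested, 5 rose and 3 fell in edgeR, where 6.24% of all genes tested rose and 7.33% fell. The median log2 fold change of the 101 was 0.01. Medians were 0.09 for complex I assembly (8 tested), 0.08 for complex III assembly (6) and 0.05 for complex IV assembly (20). Complex II assembly had 0 of 4 called (1 higher with DESeq2, 2 higher at an unadjusted p under 0.05, median 0.50), and complex V assembly 0 of 6 (0 with DESeq2, 1 lower unadjusted, median -0.05). Among assembly factors, Acad9, needed for complex I, rose from 31.5 and 28.1 CPM to 39.4, 39.0 and 36.7 CPM (0.37 ± 0.08, adjusted p = 0.0407 in edgeR). Bcs1l, which inserts the Rieske protein into complex III, rose from 17.0 and 15.4 CPM to 21.3, 24.8 and 22.5 CPM (0.49 ± 0.11, adjusted p = 0.0390). Cmc2, of complex IV assembly, fell from 18.3 and 20.2 CPM to 13.3, 12.6 and 10.2 CPM (-0.68 ± 0.14, adjusted p = 0.0324). For the 3 genes the genotypes did not overlap, and each call was lost with any 1 library left out.

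Gpd2, the glycerol 3-phosphate dehydrogenase that feeds electrons from the cytosol into the quinone pool, had the largest difference of the called genes in these lists. It was at 58.1 and 70.8 CPM in Runx3 +/+ and 30.6, 34.2 and 34.2 CPM in Runx3 +/WRPW, a log2 fold change of -0.97 ± 0.11 (adjusted p = 0.00426 in edgeR). The call held with each library left out in turn. Coq2, an enzyme of ubiquinone synthesis, rose from 33.3 and 36.2 CPM to 46.5, 45.6 and 44.1 CPM (0.39 ± 0.07, adjusted p = 0.0230). That call did not hold without any 1 of the 5 libraries.

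In the tricarboxylic acid cycle, which supplies NADH and succinate, 1 of 14 genes rose, 1 fell and 12 had fitted values below 0 (median -0.11). The called share was 14.3%, against 13.6% of all genes tested, and the share below 0 was 85.7%, against 46.8%. Idh3a, the catalytic subunit of NAD-dependent isocitrate dehydrogenase, fell from 64.7 and 66.2 CPM to 53.0, 52.1 and 52.4 CPM (-0.32 ± 0.06, adjusted p = 0.0191 in edgeR). Suclg2, a subunit of succinyl-CoA synthetase, rose from 14.8 and 14.2 CPM to 19.3, 20.3 and 19.2 CPM (0.44 ± 0.10, adjusted p = 0.0349). Idh3a passed in 1 of the 5 fits with a library left out, the one without Runx3 +/WRPW library 2, and Suclg2 in 0.

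Among 14 tested regulators of mitochondrial genes, edgeR called 1, as higher, and DESeq2 called 2 higher and 1 lower. Of all genes tested, edgeR called 13.6% and DESeq2 19.8%. Ppargc1b, a coactivator of the estrogen-related receptors and NRF1, was at 42.5 and 49.1 CPM in Runx3 +/+ and 76.1, 82.5 and 84.5 CPM in Runx3 +/WRPW. It rose with a log2 fold change of 0.82 ± 0.09 (adjusted p = 0.00426 in edgeR), and the call was lost only without Runx3 +/+ library 1 (adjusted p = 0.0553). Nrf1, at 88.0 and 75.1 CPM against 80.6, 74.7 and 74.7 CPM, and Gabpa, at 118 and 113 CPM against 110, 102 and 116 CPM, overlapped between the genotypes and did not pass. Esrra overlapped too, at 38.8 and 43.6 CPM against 44.1, 42.8 and 45.8 CPM.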

How the data were processed

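The authors deposited a raw count of reads for each gene symbol, with 1 file per sample and no normalization. The submitters' processing notes name mm10 and 4 tools: featureCounts 2.0.8, HISAT2 2.2.1, edgeR 3.36.0 and cutadapt 4.0. The sources used here do not give the annotation, the strandedness or how multi-mapped reads were counted. Sample records decided which library each file is, although 2 column headers differ from them: Runx3 +/+ library 2 is headed with a 3, and Runx3 +/WRPW library 2 with a generic aligner name.

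The comparison of genotypes used R 4.3.3 and edgeR 4.0.16 (filterByExpr with a minimum count of 10, TMM factors, glmQLFit, glmQLFTest). It was tested on simulated data and run with Benjamini-Hochberg adjustment over all 13666 genes at 0.05. Levels of single genes are TMM-scaled CPM, standard errors are the log2 fold change over the root of F, and intervals are at 95%. Sums per complex or list are in CPM of the unscaled library total, and TPM used GENCODE M21 exon unions on GRCm38, matched for 27311 of 35976 genes and all 92 members. Promoters and their sequences are from RefSeq, GRCm38.p6. A count of 3, the floor, is 0.0686 to 0.191 CPM and covers counting error only, because no molecular identifiers were used to tell molecules from copies. All pairs of libraries differed by more than sampling noise (chi-square per gene of 15.4 or more).

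The members, the 16 lists (156 genes, of which 4 had no row) and the alternatives were chosen with earlier results of these data known. The mtDNA-encoded genes were found under their RefSeq names. By rule, the text names every called member, the member of each complex with the highest TPM, the Sdh genes, the isoform pairs, the 2 smallest p-values where a complex had no call, and the called genes of the other lists. Ndufb7, Ndufs1, Ndufv1, Ndufaf2, Uqcr11, Atp5a1, Atp5e, Atp5sl, Yy1, Nrf1, Gabpa and Esrra were added after their values were seen, as were genes given by level or motif alone. The values of 1 member are not reported here, though it is counted in its groups. The alternatives comprised upper-quartile and RLE factors, limma-voom (limma 3.58.1), DESeq2 1.42.0, 2 other low-count filters, robust dispersions, glmTreat with a minimum fold of 1.2, the replicate number as a block, and each library left out.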

Additional observations from a re-analysis of the deposited data

How the results depend on the processing

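The 5 lower and 1 higher members were the same genes with upper-quartile factors, limma-voom and robust dispersions. RLE factors lost Atp5g3, leaving 0 lower in complex V. Over all genes these fits called 13.7%, 14.0%, 13.9% and 13.3%, in that order. DESeq2 called 9 lower (4 in complex I, 1 in complex III and 2 in complex IV) and 1 higher, adding Ndufa4, Ndufb7, Uqcrc1 and Cox7b, which is 11.6% of the members against 19.8% of all genes in that fit. A stricter filter, 1 CPM in all libraries of either genotype, added Ndufb7 and called 17.3% of all genes in that fit. With no low-count filter 28583 genes were tested and 3.77% of them were called. In that fit 1 member (Cox5a) was lower and 0 were higher, and complexes I, II and V had 0 lower. With a minimum fold of 1.2 in glmTreat, 0 members were called in any complex, against 6.34% of all genes. With 1 library left out, 0 to 1 members were lower (0 to 1 in complex IV, 0 in complexes I, II and V) and 0 were higher. Of all genes, 5.71%, 10.8% and 6.97% were called without Runx3 +/WRPW library 1, 2 and 3. Where a Runx3 +/+ library was left out, the lone one was assumed to vary like the other genotype, and 18369 or 18169 genes were tested.

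Replicate numbers occur in both genotypes, and the deviations of same-numbered libraries had correlations of -0.029 and 0.016. The deviations of the 2 Runx3 +/+ libraries mirror each other, so these values cannot decide whether the numbers mark pairs. The number of Runx3 +/+ library 2 is also in doubt, since its header bears a 3. The main comparison did not take the numbers as pairing. With the replicate number as a block, 0 members were called in any complex, and 754 genes in all (5.52% of those tested). Of the other lists the block left 1 gene lower and 1 higher.

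Those lists, with 3 lower and 5 higher, had 5 lower and 7 higher with DESeq2, a fit that called 19.8% of all genes. They had 1 lower and 1 higher with glmTreat, 2 higher with no filter, and 1 to 2 lower and 0 to 2 higher with a library left out. Some alternatives were chosen after seeing the data. On the TMM effective library size, the summed levels were -7.19% (all members), -2.36% (Ndufaf), -3.50% (complex II) and -6.86% (complex V) different. Members above both Runx3 +/+ libraries in every heterozygous library numbered 8 to 15 (9.30% to 17.4%) with a library left out, 15 without either Runx3 +/+ library, against 28.4% to 36.7% of all genes, and members below both numbered 42 to 50, against 27.1% to 34.1%.

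Signs changed at 6 named members, all with fitted values near 0 or very low counts. Sdha was 0.028 with upper-quartile factors, 0.00087 with the 1 CPM filter, 0.0075 with the block, and -0.059 to 0.0094 with a library left out. Sdhd was -0.0047 with RLE, -0.0045 with DESeq2, -0.0059 with no filter, -0.035 with the block, and -0.033 to 0.020 with a library left out. Cox7a2l was 0.0021 with upper-quartile factors and -0.10 to 0.041 with a library left out. With a library left out, Cox6b1 ran from -0.024 to 0.022, Cox6b2 from -0.0013 to 0.23 and Cox7a1 from -0.32 (without Runx3 +/+ library 2) to 1.13 (without Runx3 +/+ library 1). The cause was not tested. At 2 and 3 libraries a genotype, a difference that did not pass may still be present: the 95% intervals of 10 of the 86 members reached beyond 1.5-fold in 1 or both directions.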
